A study of Mus musculus with 4 samples.

Results

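The genes described here are 7 members of the major histocompatibility complex (MHC) class II presentation pathway, taken by name from the 28692 genes of a single-cell table of colon monocytes and macrophages: H2-Aa, H2-Ab1, H2-Eb1, H2-DMa, H2-DMb1, Cd74 and Ciita. All 7 had a row in the table. The cells came from the colon lamina propria of 4 male C57/Bl6N mice, of which 2 (DEP 11 and DEP 13) had been given 12 µg of diesel exhaust particles (DEP) in 200 µL of PBS by oral gavage and 2 (PBS 2 and PBS 3) PBS only, on 5 days per week over about 6 months. The cells were sorted as positive for CD11b and for Ly6C or CD64, and the cells of each mouse formed a separate droplet library in which unique molecular identifiers (UMIs) count captured RNA molecules. The age of the mice was not given in the labels, the sort was made in 1 batch, and with 2 mice per group an exact permutation test of a single value could not give a p below 0.333.

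MHC class II molecules hold peptides from engulfed proteins at the cell surface, where CD4 T cells read them. Each molecule pairs an alpha and a beta chain, is held by the invariant chain during assembly, and receives its peptide in an acidic compartment with the help of the DM heterodimer, while the coactivator CIITA switches on transcription of the whole group. Monocytes that enter the intestine carry Ly6C at first, and on becoming resident macrophages they lose Ly6C and gain class II and complement component C1q.

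H2-Aa encodes the alpha chain and H2-Ab1 the beta chain of the I-A molecule, and H2-Eb1 encodes the beta chain of I-E. C57BL/6 mice lack a functional I-E alpha chain, and H2-Ea was looked for by name but had no row. In the GRCm38 (mm10) annotation H2-Aa spans bases 34282744 to 34287823 of chromosome 17 on the minus strand, H2-Ab1 34257689 to 34269419 and H2-Eb1 34305867 to 34316674 on the plus strand. The DM genes lie on the same chromosome, H2-DMa at 34119541 to 34139101 and H2-DMb1 at 34153072 to 34160230. Cd74, the invariant chain, lies on chromosome 18 at 60803848 to 60812652, and Ciita on chromosome 16 at 10480059 to 10528418. The annotated span of H2-Eb1 overlaps Gm20513, that of Cd74 Mir5107, that of Ciita Dexi, and that of H2-DMa Brd2, Gm20493, CR974462.3 and CR974462.4, so single reads there may be harder to assign.

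The promoters of H2-Aa and H2-Eb1 are shown because these chains changed together along the Ly6c2 and C1qa classes described below. The sequences run 5′ to 3′ on the gene's strand over the 130 bases just before the RefSeq start (GRCm38.p6), chr17:34287824-34287953 on the minus strand for H2-Aa and chr17:34305737-34305866 on the plus strand for H2-Eb1. Capitals mark the motif CCAAT, the core of the Y box, and 2 motifs picked after the sequences had been read, GACGTCA and CTGATGATG, each searched on both strands.

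H2-Aa: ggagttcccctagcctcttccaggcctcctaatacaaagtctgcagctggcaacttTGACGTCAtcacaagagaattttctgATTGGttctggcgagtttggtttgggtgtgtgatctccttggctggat

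H2-Eb1: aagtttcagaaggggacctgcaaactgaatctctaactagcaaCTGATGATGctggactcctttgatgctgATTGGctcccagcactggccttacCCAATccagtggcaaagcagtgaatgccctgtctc

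The letters CCAAT, here on the strand opposite the gene and so shown as ATTGG, began 48 bases before the start of H2-Aa. In H2-Eb1 they began 59 bases before the start on the opposite strand and 35 bases before it on the gene's own strand. CCAAT was held by 37.4% of the 32851 mouse promoter windows, which run from 250 bases before to 50 after the start, so its presence in the H2-Aa, H2-Eb1 and H2-DMb1 windows was common. CTGATGATG, found in the H2-Eb1 and H2-DMb1 windows, occurred in 0.527% of all windows, and GACGTCA, found in the H2-Aa window, in 3.21%. The motif ACAGATG, in 5.01% of all windows, was found in the H2-Aa window and not in the others. H2-DMa had 2 windows, of which 1 held CCAAT. H2-Ab1, Cd74 and Ciita were not matched to a window.

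The table held 6954 barcodes, of which 4771 had at least 1000 UMIs. After 98 barcodes with at least 2 UMIs of B, T or plasma cell genes (counted after thinning) had been set apart, 4673 cells remained: 1201 and 650 from DEP 11 and DEP 13, and 1277 and 1545 from PBS 2 and PBS 3, with a median of 5334 to 7119 UMIs per cell by mouse. Libraries shared 36 barcode strings, carried by 36 of these cells. Each cell was thinned at random to 1000 UMIs so that depth did not decide its class. Cells with at least 1 Ly6c2 UMI and fewer than 2 C1qa UMIs were called Ly6c2+ C1qa- (414 cells), those with both Ly6c2+ C1qa+ (273), those with neither Ly6c2- C1qa- (1167) and those with at least 2 C1qa UMIs and no Ly6c2 UMI Ly6c2- C1qa+ (2819). These classes are ranges and not cell types: 495 cells had exactly 1 Ly6c2 UMI, and 836 and 575 cells had 1 and 2 C1qa UMIs. The 7 listed monocyte genes, Ly6c2 with genes such as Ccr2 and Plac8, summed to 5599 to 7971 UMIs per 1000000 UMIs of the summed cells (CPM) over the 4 mice in Ly6c2+ C1qa- cells and to 775 to 1237 in Ly6c2- C1qa+ cells. The 11 listed macrophage genes, C1qa with genes such as Mrc1 and Adgre1, ran the other way, from 10934 to 19605 and from 48005 to 56608 CPM. Of the listed dendritic cell genes Xcr1 was at 0 in Ly6c2+ C1qa- cells. The list summed to 46.1 to 75.1 CPM there, to 23.4 to 48.4 in Ly6c2- C1qa+ cells and to 100.6 to 198 in cells with neither marker. The listed plasma cell genes summed to 313 to 21342 CPM in Ly6c2+ C1qa- cells and to 717 to 3771 in Ly6c2- C1qa+ cells. Their part in the class differences was not tested. In bulk sums such as these, fewer cells carrying a gene and less RNA per cell cannot be told apart, and for the summed class II genes the distribution over cells is therefore given below.

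All 7 genes rose from Ly6c2+ C1qa- to Ly6c2- C1qa+ cells, and in all 4 mice. In edgeR's quasi-likelihood test on 16 sums (4 mice by 4 classes, the mouse as a block), 13.5% of the 6609 genes tested were called higher in Ly6c2- C1qa+ cells at a Benjamini-Hochberg adjusted p under 5%, beside 7 of 7 class II members, and the median difference over the members was 1.31 on the log2 scale against 0.01 over all genes tested. Ly6c2 and C1qa had defined the classes, but no class II gene had.

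H2-Aa, the I-A alpha chain, stood at 7357, 5154, 8245 and 7544 CPM in the Ly6c2+ C1qa- cells of DEP 11, DEP 13, PBS 2 and PBS 3. In their Ly6c2- C1qa+ cells its mean was 18566 ± 481 (SD, n = 4), 2.62 times the mean of 7075 ± 1336 in Ly6c2+ C1qa- cells. The ranges of these classes did not overlap in any chain gene. H2-Ab1, its beta chain partner, went from 8195 ± 1897 to 20774 ± 1894 (SD, n = 4), and H2-Eb1 from 5001 ± 1030 to 14844 ± 839, a ratio of 2.97. The log2 differences were 1.36 ± 0.07 (SE, adjusted p = 3.16e-14, edgeR) for H2-Aa, 1.31 ± 0.06 (adjusted p = 7.33e-15, edgeR) for H2-Ab1 and 1.53 ± 0.07 (adjusted p = 5.43e-15, edgeR) for H2-Eb1.

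Cd74, which guides the chains through assembly, was at 19453, 14542, 20134 and 17682 CPM in the Ly6c2+ C1qa- cells of DEP 11, DEP 13, PBS 2 and PBS 3. It reached 51432 ± 2963 (SD, n = 4) in Ly6c2- C1qa+ cells, or 5.14% of all their UMIs, and the log2 difference was 1.47 ± 0.06 (SE, adjusted p = 1.05e-15, edgeR). Its level in every mouse lay above the highest Ly6c2+ C1qa- value.

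The DM genes changed less than the chains and Cd74. H2-DMa, the alpha chain of DM, stood at 1028 ± 189 CPM (SD, n = 4) in Ly6c2+ C1qa- cells and at 1734 ± 79.2 in Ly6c2- C1qa+ cells, a log2 difference of 0.71 ± 0.07 (SE, adjusted p = 2.18e-08, edgeR). H2-DMb1, the beta chain, stood at 664 ± 112 and 1249 ± 74.0, a log2 difference of 0.87 ± 0.08 (SE, adjusted p = 1.64e-09, edgeR). H2-DMa UMIs per 100 Cd74 UMIs were 5.71, 5.27, 6.00 and 5.82 in the Ly6c2+ C1qa- cells of DEP 11, DEP 13, PBS 2 and PBS 3, and 3.39, 3.06, 3.59 and 3.48 in their Ly6c2- C1qa+ cells. The ratio was lower in the C1qa+ cells of each mouse, whereas the H2-Ab1 to H2-Aa ratio was similar between these classes, at 115 ± 8.5 and 112 ± 11.3 UMIs of H2-Ab1 per 100 of H2-Aa (SD, n = 4).

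Ciita, the coactivator of the group, was sparse, with 1926 UMIs in the whole table. Its level was 33.6, 36.2, 46.6 and 36.1 CPM in the Ly6c2+ C1qa- cells of DEP 11, DEP 13, PBS 2 and PBS 3, resting on 19, 11, 28 and 25 UMIs. In Ly6c2- C1qa+ cells it was 59.9 ± 7.45 (SD, n = 4), and the lowest mouse there, at 50.4, still exceeded the highest of the former class. The log2 difference was 0.63 ± 0.15 (SE, adjusted p = 0.00144, edgeR), which missed the threshold on the thinned counts (0.82, adjusted p = 0.0955, edgeR).

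**Figure D1:**
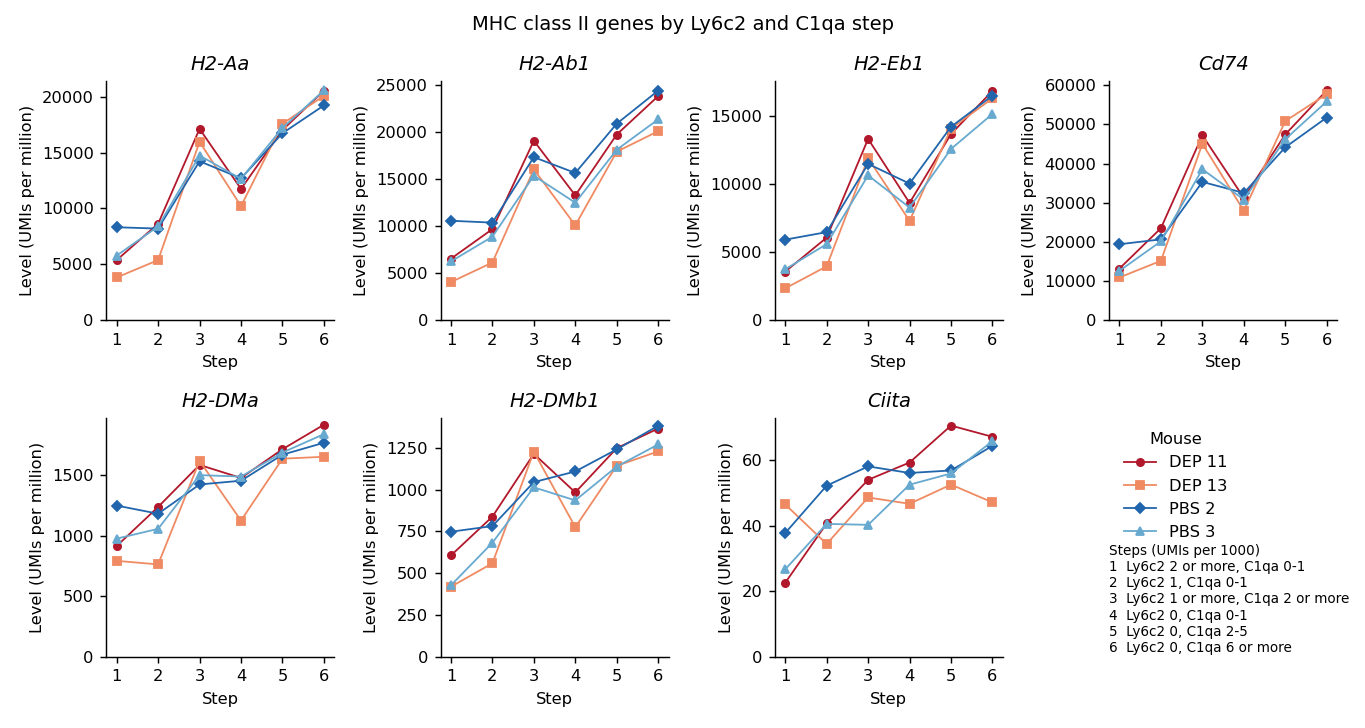
Level of each class II gene (vertical axis, CPM, UMIs per 1000000 UMIs, summed over the cells of a mouse) at 6 steps of Ly6c2 loss and C1qa gain (horizontal axis, defined on 1000 UMIs per cell), 1 line per mouse. The chains and Cd74 run from their lowest levels at steps 1 and 2 to their highest at step 6 in every mouse, with step 4, the cells with neither marker, below step 3.

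Split more finely, the path from Ly6c2-high cells (at least 2 Ly6c2 UMIs, 142 cells) to C1qa-high cells (at least 6 C1qa UMIs and no Ly6c2) took the summed class II genes from 3.21% ± 1.01 of all UMIs to 11.8% ± 0.367 (SD, n = 4). At the intermediate steps the means were 4.36% with 1 Ly6c2 UMI, 8.85% with both markers, 6.63% with neither, and 10.0% with 2 to 5 C1qa UMIs and no Ly6c2. The sum was higher at the second step than at the first in 4 of 4 mice and at the sixth than at the fifth in 4 of 4 mice. At the first step DEP 13 contributed 10 cells only. H2-Eb1 had the largest ratio between the ends of this path, 4.17, and H2-DMa the smallest, 1.83, equal to 2 decimals to that of Ciita.

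The 1167 cells with neither marker lay between Ly6c2+ C1qa- and Ly6c2- C1qa+ cells. All 8 listed dendritic cell genes had UMIs in them, and the list was higher there than in any other class (means of 187 CPM in DEP and 102 in PBS mice, mostly Cd209a, with 112 ± 36.2 CPM, SD, n = 4). The part of dendritic cells in the class II levels of this class was not tested. Of the 7 members, 6 rose over Ly6c2+ C1qa- cells, where 1.8% of the genes tested were called higher and 2.86% lower, with log2 differences from 0.38 ± 0.07 (SE) for H2-DMa (adjusted p = 0.00162, edgeR) to 0.73 ± 0.07 for H2-Eb1 (adjusted p = 1.43e-07, edgeR). Ciita had 0.47 ± 0.16 (SE, adjusted p = 0.101, edgeR). H2-DMa lost its call without the mouse block (0.39, adjusted p = 0.0949, edgeR) and on thinned counts (0.33, adjusted p = 0.0585, edgeR). From the cells with neither marker to Ly6c2- C1qa+ cells, 6 of 7 members rose again, where 13.8% of all genes were called higher and 14.7% lower, from 0.33 ± 0.07 (SE, adjusted p = 0.000791, edgeR) for H2-DMa to 0.81 ± 0.07 (adjusted p = 1.15e-09, edgeR) for H2-Eb1, and Ciita had 0.16 ± 0.10 (adjusted p = 0.248, edgeR). In Ly6c2+ C1qa+ cells H2-Aa, H2-Ab1, H2-Eb1 and Cd74 were higher than in cells with neither marker in 4 of 4 mice, a difference that was not tested.

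Per cell, class II did not form a single range. In the 414 Ly6c2+ C1qa- cells the median of the summed class II genes was 23.0 of 1000 UMIs, with 58.2% of cells under 30 UMIs and 35.0% at 50 or more. By mouse the share at 50 or more was 36.7% and 26.1% in DEP 11 and DEP 13 and 39.8% and 32.9% in PBS 2 and PBS 3. In the 2819 Ly6c2- C1qa+ cells the median was 108 UMIs, 4.33% of cells were under 30 and 90.8% at 50 or more. The boundary of 50 was chosen after the distribution had been seen, and the upper group is described here without a test. The 145 Ly6c2+ C1qa- cells at or above it had 811 CPM of Ly6c2 against 1315 in the 269 cells below it, and 367 against 1210 of the monocyte gene Chil3. Their Ccr2 level was 905 against 570 CPM, and their Ciita level 71.1 against 21.2, from 53 and 30 UMIs. Ciita was itself among the genes summed for this boundary, so its values are not independent of the split.

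**Figure D2:**
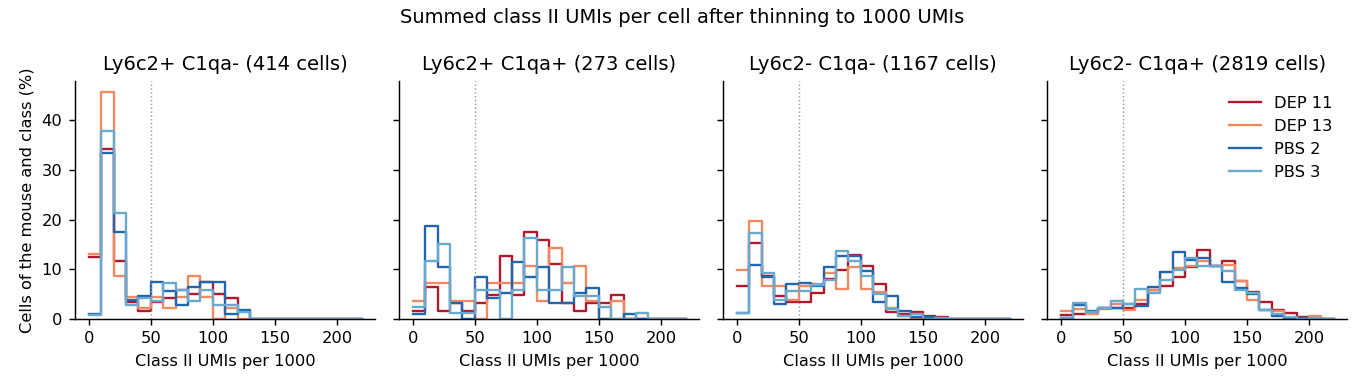
Share of cells (vertical axis, % of the cells of that mouse and class) by summed UMIs of the 7 class II genes after thinning to 1000 UMIs (horizontal axis, bins of 10), 1 line per mouse and 1 panel per class, with a dotted line at 50. Ly6c2+ C1qa- cells and cells with neither marker show a lower and an upper group, and Ly6c2- C1qa+ cells mostly the upper, with a median of 108.

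Class II UMIs were also found where class II RNA should be scarce. The 90 barcodes with at least 10% immunoglobulin UMIs had a median of 29.5 class II UMIs per 1000 at a median depth of 19726 UMIs, and the 39 barcodes with T cell genes a median of 15.0 at 2996 UMIs. The 1614 barcodes under 500 UMIs carried class II genes at 2.38% to 3.48% of UMIs by mouse. The lower group of Ly6c2+ C1qa- cells was at or near these levels and was not separated from free RNA, whereas 15.6% of the immunoglobulin-rich barcodes reached 50 UMIs against 90.8% of Ly6c2- C1qa+ cells. For Ciita, 3.62% of Ly6c2+ C1qa- cells and 5.85% of Ly6c2- C1qa+ cells had a UMI after thinning, against 1.11% of the immunoglobulin-rich barcodes. Before thinning the shares were 17.6%, 32.7% and 34.4%, the last at the greatest depth. Barcodes under 500 UMIs held Ciita at 244, 145, 107 and 201 CPM in DEP 11, DEP 13, PBS 2 and PBS 3, above every class of cell.

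Within a class and mouse, the chains and Cd74 varied together from cell to cell. Over the 2819 Ly6c2- C1qa+ cells on thinned log2 counts, the median Pearson r over the 4 mice was 0.700 between H2-Aa and H2-Ab1, 0.756 between H2-Aa and Cd74, and 0.738 between H2-Eb1 and Cd74. It was 0.244 between H2-Aa and H2-DMa, 0.0572 between H2-DMa and H2-DMb1 and 0.00786 between Cd74 and Ciita, genes with few UMIs per cell. Over the 414 Ly6c2+ C1qa- cells it was 0.676 between H2-Aa and H2-Ab1 and 0.758 between H2-Aa and Cd74. The DM genes had higher values there, 0.349 between H2-Aa and H2-DMa, 0.465 between Cd74 and H2-DMb1 and 0.242 between H2-DMa and H2-DMb1. The cells of a mouse shared a library and the same 1000 UMIs, so these values describe the cells and carry no test.

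Of the 39 other pathway gene names listed, some of them alternative names of the same gene, 35 had a row. Between Ly6c2- C1qa+ and Ly6c2+ C1qa- cells 29 were tested, and 10 rose and 2 fell. The median log2 difference was 0.14 over the 29 genes and 0.01 over all genes (13.5% of all genes called higher and 15.7% lower). The remaining peptide editors all rose: H2-DMb2, the second DM beta gene, by 1.09 ± 0.08 (SE, adjusted p = 3.97e-11, edgeR), and the DO genes H2-Oa and H2-Ob, inhibitors of DM, by 2.33 (adjusted p = 3.11e-06, edgeR) and 1.51 (adjusted p = 0.000534, edgeR). H2-Oa went from 8.39 ± 4.29 to 45.6 ± 6.63 CPM (SD, n = 4). Of the antigen-processing genes, legumain (Lgmn) rose by 1.58 (adjusted p = 1.83e-14, edgeR) and cathepsin L (Ctsl), which cuts the invariant chain, by 1.35 (adjusted p = 4.71e-09, edgeR). Cathepsin S (Ctss), the main invariant chain protease of myeloid cells, rose by 0.48 (adjusted p = 4.74e-07, edgeR), and Ctsb and Ctsh also rose, by 0.98 and 0.49. Ctsd and Ifi30 had 0.07 and -0.11 and did not pass.

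No transcription factor of the list other than Ciita passed: the 6 that could be tested, among them Rfxank and Rfxap of the RFX complex and Nfya, Nfyb and Nfyc of NF-Y, had log2 differences from -0.27 to 0.36, and Rfx5 fell under the filter on low counts. Of the genes of interferon gamma input, which induces CIITA, Irf8 rose by 0.51 (adjusted p = 5.30e-06, edgeR), while the receptor chain Ifngr1 fell, with -0.39 (adjusted p = 0.000145, edgeR), and Irf1 had -0.19 (adjusted p = 0.287, edgeR). March1, a ligase that removes class II from the surface, had 0.07 (adjusted p = 0.821, edgeR). Among costimulatory genes Cd86 rose by 0.41 (adjusted p = 0.000542, edgeR), and Cd40 and Cd80 had -0.07 and 0.61 (adjusted p = 0.840 and 0.200, edgeR).

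Over the 24 sums of mouse by step, the genes outside the list whose log2 level ran most like the mean of the 6 members other than Ciita were Cd300c2 (Pearson r = 0.963), Selenop (0.961), C1qc (0.958), Cxcl16 (0.957), Ecm1 (0.955), Apoe (0.954), C1qb (0.953), Aif1 (0.949), Tlr12 (0.949) and Fth1 (0.945). C1qb and C1qc encode partners of C1qa, which defined the steps. The members themselves had r of 0.967 (H2-DMa) to 0.995 (H2-Eb1) with the mean of the others and Ciita 0.756. The sums of a mouse came from the same library, so these values are a description.

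Between DEP and PBS mice no member passed the test in any class or in all cells together. In edgeR's quasi-likelihood test over 4 sums, 0 of 6609 genes (0.0%) passed in all cells at an adjusted p under 5%, with 175 at an unadjusted p under 0.05 and 4 called by DESeq2. The summed class II genes took 9.78% and 9.06% of the UMIs of all cells in DEP 11 and DEP 13 and 9.58% and 9.0% in PBS 2 and PBS 3. The groups overlapped, with a difference of 0.133 percentage points (exact permutation test, two-sided, p = 0.667, n = 2 and 2).

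H2-Aa was at 16519 and 15583 CPM in all cells of DEP 11 and DEP 13, and at 16224 and 16196 in PBS 2 and PBS 3, a log2 difference of -0.02 ± 0.12 (SE, adjusted p = 0.998, edgeR). The DEP mice lay on either side of the PBS mice. Cd74 was at 46147 and 44502 in DEP mice and at 42706 and 42648 in PBS mice, so the groups did not overlap, but the log2 difference was 0.09 ± 0.11 (SE, adjusted p = 0.998, edgeR). Over the members the log2 differences in all cells ran from -0.09 for H2-Ab1 to 0.09 for Cd74, and 0 of the 29 other pathway genes tested passed.

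The differences by class were small and had no common direction. In Ly6c2+ C1qa- cells the 7 members had log2 differences of -0.32 (H2-Ab1) to -0.03 (H2-DMb1), with standard errors of 0.20 to 0.38, where 0.0% of 5729 genes passed (173 at an unadjusted p under 0.05, and 0 called by DESeq2). DEP 13 had the lowest level of every member but Ciita in this class, with 46 cells, while DEP 11 lay within or near the range of the PBS mice. The wider exclusion used below, of barcodes rich in immunoglobulin or low in Lyz2, dropped 5 of these 46 cells. It dropped 2 of 120 in DEP 11, 0 of 108 in PBS 2 and 8 of 140 in PBS 3. In Ly6c2+ C1qa+ cells the 7 members had 0.06 (Ciita) to 0.33 (Cd74), where 0.0302% of 6615 genes passed, the immunoglobulin genes Igha and Iglc2. Cd74 there stood at 47199 and 45042 CPM in DEP 11 and DEP 13 against 35309 and 38540 in PBS 2 and PBS 3, without overlap, and its log2 difference of 0.33 ± 0.14 (SE) had an adjusted p of 0.997 in edgeR. In cells with neither marker, where the dendritic cell list was higher in DEP mice, the members had -0.24 (H2-Ab1) to -0.00123 (Ciita), and in Ly6c2- C1qa+ cells -0.04 (H2-Ab1) to 0.13 (Cd74), where 0.0% of 5916 and of 6934 genes passed in edgeR (181 and 227 at an unadjusted p under 0.05, and 1 and 6 called by DESeq2, no member among them). The 4 classes came from the same mice and libraries, and the comparisons are not independent.

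**Figure D3:**
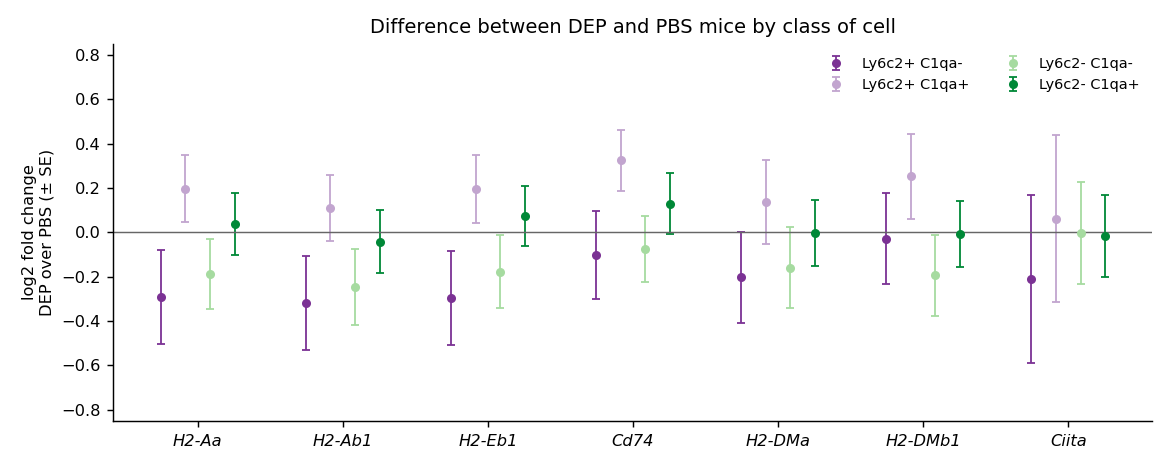
Log2 fold change of DEP over PBS mice (vertical axis, with standard errors from edgeR) for each class II gene (horizontal axis), 1 colour per class of cell, 2 mice per group. No value passed the test, and the values run from -0.32 for H2-Ab1 in Ly6c2+ C1qa- cells to 0.33 for Cd74 in Ly6c2+ C1qa+ cells.

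The DEP difference itself was compared between Ly6c2- C1qa+ and Ly6c2+ C1qa- cells. H2-Eb1 stood at 5074 and 3717 CPM in the Ly6c2+ C1qa- cells of DEP 11 and DEP 13 and at 6237 and 4976 in those of PBS 2 and PBS 3. In Ly6c2- C1qa+ cells it stood at 15516 and 14947 in DEP mice and at 15278 and 13636 in PBS mice. The DEP groups overlapped the PBS groups in both classes. The difference of the differences was 0.39 ± 0.07 on the log2 scale (SE of the fit, adjusted p = 0.0499, edgeR). H2-Eb1 was 1 of 5 genes called higher in this contrast, with Cxcl9, Cd63, Selenop and Dab2 (0.0757% of genes tested). The fit took the sums of mouse and class as replicates, so its SEs do not measure the spread between mice. Within a class, the H2-Eb1 DEP difference had an SE of 0.21 (Ly6c2+ C1qa- cells) or 0.14 (Ly6c2- C1qa+ cells). With 2 mice per group, the call does not establish a treatment effect. The H2-Eb1 difference of the differences ran from 0.28 on thinned counts to 1.01 with both cut-offs at 2 UMIs. The call was lost under 9 of the 12 alternative settings that kept all mice and without DEP 13 (0.29, adjusted p = 0.340, edgeR), PBS 2 (0.35, adjusted p = 1.0) or PBS 3 (0.42, adjusted p = 0.683). H2-Aa and H2-Ab1 had 0.35 ± 0.07 (adjusted p = 0.0916, edgeR) and 0.30 ± 0.07 (adjusted p = 0.130, edgeR), and Cd74 0.26 ± 0.07 (adjusted p = 0.304, edgeR). Plasma cell genes moved with the mouse in the Ly6c2+ C1qa- cells, summing from 313 to 21342 CPM, and with the wider exclusion of immunoglobulin-rich barcodes the H2-Eb1 value was 0.43 (adjusted p = 0.0361, edgeR).

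The low end of class II per cell was compared by the share of cells above a fixed count. The share of Ly6c2+ C1qa- cells with at least 5 class II UMIs of 1000 was 100% in every mouse, so that this measure could not differ. With at least 10 UMIs it was 87.5% and 87.0% in DEP 11 and DEP 13 and 99.1% and 99.3% in PBS 2 and PBS 3 (exact permutation test, two-sided, p = 0.333, the smallest this design allows). In cells with neither marker the shares were 93.4% and 90.2% against 98.8% and 98.8%. Class II genes took 3.04% and 2.38% of the UMIs of barcodes under 500 UMIs in DEP 11 and DEP 13 and 3.48% and 2.97% in PBS 2 and PBS 3, and the part of free RNA in this difference was not tested.

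The ratio between chains differed more between mice than between the class means. H2-Ab1 had 116, 101, 126 and 105 UMIs per 100 H2-Aa UMIs in the Ly6c2- C1qa+ cells of DEP 11, DEP 13, PBS 2 and PBS 3, and 115, 113, 127 and 106 in their Ly6c2+ C1qa- cells. PBS 2 was highest in all 4 classes and DEP 11 second, while DEP 13 and PBS 3 changed places between classes, so the order did not follow the treatment. Immunoglobulin-rich barcodes had 128, 107, 137 and 116 in the same order of mice. The longest coding transcripts of H2-DMb1 and H2-DMb2, of 1404 and 1483 bases, were identical at 1155 positions of their alignment. This was 69.2% of 1668 alignment columns, a share that counts gap columns as differences. Over the last 500 bases, nearest to where a 3′ library reads, it was 59.8% (332 of 555 columns). Paired bases were therefore more alike than these shares. H2-DMb2 had 54.4 and 62.6 UMIs per 100 H2-DMb1 UMIs in the Ly6c2- C1qa+ cells of DEP 11 and DEP 13. In those of PBS 2 and PBS 3 it had 40.3 and 47.2, without overlap. In all cells H2-DMb2 stood at 644 and 641 CPM in DEP 11 and DEP 13 and at 481 and 500.3 in PBS 2 and PBS 3. The groups did not overlap, and the log2 difference of 0.39 ± 0.15 (SE) did not pass (unadjusted p = 0.0333, adjusted p = 0.998, edgeR). How reads were shared between these genes was not tested.

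**Figure D4:**
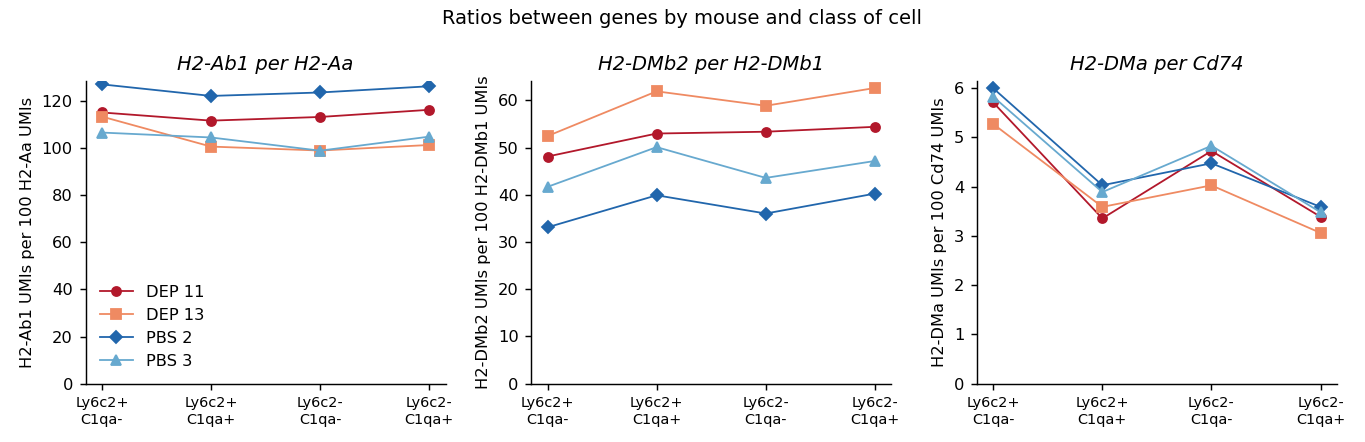
UMIs of 1 gene per 100 UMIs of another (vertical axes, from 0) by class of cell (horizontal axis), 1 line per mouse: H2-Ab1 per H2-Aa, H2-DMb2 per H2-DMb1 and H2-DMa per Cd74. The first is highest in PBS 2 and next in DEP 11 in each class, while DEP 13 and PBS 3 change places, the second is higher in both DEP mice in each class, and the third is highest in Ly6c2+ C1qa- cells in every mouse.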

How the data were processed

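UMI counts per gene and barcode were deposited by the authors as 1 table of the 4 libraries, made with Cell Ranger and STAR 2.6.1a on mm10 and merged without downsampling, per the study's methods. Barcodes were kept at 1000 UMIs or more, and 4529 of the 4673 cells passed the study's further filters, more cells than its methods report. The study's methods found no doublets, and scrublet (scanpy 1.11.5) called 66 cells. The deposited counts were summed per mouse and class, without sums of fewer than 10 cells, and tested with edgeR 4.0.16 (TMM, quasi-likelihood) on genes over 1 CPM in at least 2 sums with a UMI in 5% of cells. DESeq2 1.42.0 was an alternative. The fits were checked on simulated counts. Levels are UMIs per 1000000 UMIs (CPM) of the summed cells, and likeness was taken on log2(level + 1). All members were named, and other pathway genes where they passed a test or stood among the first 3 of their group, except 1 listed gene that is not reported here. The members and lists were chosen with earlier results of these data known. SDs are over mice, SEs are from the edgeR fits, and depths are UMI counts.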

Additional observations from a re-analysis of the deposited data

Results flagged for a closer look

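The test of the difference of DEP differences took the sums of mouse and class as replicates. Its error was not the spread between mice. The DEP difference of H2-Eb1 was called higher in Ly6c2- C1qa+ than in Ly6c2+ C1qa- cells, by 0.39 (log2 scale, adjusted p = 0.0499, edgeR). It kept its direction under the 12 alternative settings with all mice and its call under 3 of them: DESeq2 (0.38, adjusted p = 0.0348), no filter on low genes (0.41, adjusted p = 0.00111, edgeR) and the wider exclusion of immunoglobulin-rich barcodes (0.43, adjusted p = 0.0361, edgeR). Without DEP 11 it was 0.50 (adjusted p = 0.00886, edgeR), and without DEP 13, whose Ly6c2+ C1qa- cells numbered 46, it was 0.29 (adjusted p = 0.340, edgeR). On thinned counts it was 0.28 (adjusted p = 0.915, edgeR).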

How the results depend on the processing

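With 2 mice per group, a DEP value rested on which mouse was in it, and the lower end of class II per cell was not separated from free RNA. No paired analysis was possible because DEP and PBS mice shared no replicate number. A mouse term was kept within the class comparisons. Members kept direction and side of the threshold in 269 of 273 class values with all mice and in 84 of 84 with a mouse left out, and the exceptions are in the report except Ciita between cells with neither marker and Ly6c2+ C1qa- cells, called with both cut-offs at 1 (1.03, adjusted p = 0.0254, edgeR). DEP values of members were not called under any alternative. In the difference of DEP differences, H2-Aa, H2-Ab1 and Cd74 were called without the gene filter, and H2-Aa and Cd74 without DEP 11. The causes were not tested. The wider exclusion, the count of 50 and the removal of shared barcodes were chosen after seeing the data, and a lone mouse in a group was assumed to vary like the others.

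Member values that turned sign lay near 0. In all cells, H2-Aa had 0.00188 with the wider lymphoid exclusion, H2-Eb1 -0.00966 without the gene filter and H2-DMa 0.00313 thinned. In Ly6c2- C1qa+ cells, H2-DMa had 0.00543 thinned, 0.00227 without doublets, 0.00162 at 2000 UMIs, 0.00691 with cut-offs of 2 and 0.00961 with the wider exclusion, H2-DMb1 had 0.000206 without doublets, 0.0076 with cut-offs of 2 and 0.00291 with the wider exclusion, and Ciita had 0.0828 thinned, 0.00604 without doublets and 0.00514 with cut-offs of 1. Ciita had -0.0889 without doublets and -0.0644 with cut-offs of 1 in Ly6c2+ C1qa+ cells, and 0.0391 with lymphoid barcodes, 0.00106 at 2000 UMIs and 0.00307 without shared barcodes in cells with neither marker.

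With a mouse left out, Ciita ran from -0.194 to 0.105 in all cells, -0.365 to 0.0263 in Ly6c2+ C1qa- cells, -0.127 to 0.309 in Ly6c2+ C1qa+ cells, -0.147 to 0.112 in cells with neither marker, -0.229 to 0.151 in Ly6c2- C1qa+ cells and -0.212 to 0.528 in the difference between classes. H2-Aa ran from -0.0642 to 0.0369 in all cells and -0.0324 to 0.122 in Ly6c2- C1qa+ cells, H2-Ab1 from -0.129 to 0.0436 there, H2-Eb1 from -0.0491 to 0.08 in all cells, and H2-DMa from -0.110 to 0.0161 in all cells and -0.0613 to 0.067 in Ly6c2- C1qa+ cells. H2-DMb1 ran from -0.100 to 0.0159 in all cells, -0.124 to 0.0582 in Ly6c2+ C1qa- cells, -0.0567 to 0.0418 in Ly6c2- C1qa+ cells and -0.0346 to 0.108 in the difference. The class II share of UMIs ran from -0.225 to 0.491 percentage points, DEP minus PBS.

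The share of Ly6c2+ C1qa- cells called class II high differed by 0.0 points at 5 UMIs, -12.0 at 10 and -4.96 at 50. Called genes, DEP against PBS in all cells, numbered 4 with DESeq2 and 111 without the gene filter (edgeR 0), and 3 to 13 with a mouse left out. In Ly6c2+ C1qa- cells they numbered 13 with cut-offs of 2, 3 with cut-offs of 1, 34 without the filter and 0 to 8 with a mouse left out, and in Ly6c2+ C1qa+ cells 4 without doublets, 5 at 2000 UMIs, 0 with cut-offs of 1, 0 with the wider exclusion, 1 with DESeq2, 23 without the filter and 9 to 23 with a mouse left out. DEP against PBS in Ly6c2+ C1qa+ cells could not be fitted with cut-offs of 2. In cells with neither marker they numbered 1 with DESeq2, 68 without the filter and 7 to 55 with a mouse left out, and in Ly6c2- C1qa+ cells 6, 87 and 20 to 27. For Ly6c2- C1qa+ over Ly6c2+ C1qa- cells they numbered 551 thinned, 1143 with cut-offs of 2 and 1284 with cut-offs of 1. For cells with neither marker over Ly6c2+ C1qa- cells they numbered 87 thinned, 97 with cut-offs of 1, 87 without the mouse block and 174 to 278 with a mouse left out, and for Ly6c2- C1qa+ over cells with neither marker 555 thinned and 958 without the mouse block. For the difference of DEP differences they numbered 0 with the study's filters, lymphoid barcodes in, doublets out, 2000 UMIs, shared barcodes out or RLE factors, 1 thinned, 15 with cut-offs of 2, 2 with cut-offs of 1, 12 with the wider exclusion, 43 without the filter and 1 to 6 with a mouse left out.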
